A study of Mus musculus with 10 samples.

Results

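The 33 genes described here are expressed by microglia and other macrophages, and they were examined in 10 Patch-Seq libraries, each made from the cytoplasm of 1 inspiratory neuron of the preBötzinger complex (preBötC) of neonatal mice. They are the listed microglia and macrophage genes, taken by symbol, and all 33 were found among the 55367 genes in the count and FPKM tables. Inspiratory neurons were recorded in brainstem slices, sorted by membrane properties into types, aspirated through the patch pipette and sequenced after SMART-Seq v4 amplification. The set holds 4 Type-1 neurons (putatively rhythm-generating), 1 Type-2 neuron (putatively pattern-generating) and 5 neurons of Unknown type. Samples 1, 5, 6 and 7 are Dbx1-derived neurons of Dbx1;Ai148 mice, in which Cre under the Dbx1 promoter switches on the calcium indicator GCaMP6f, and samples 2, 3, 4, 8, 9 and 10 are neurons of CD-1 wild-type mice without a reporter. Sample 1 is the Type-2 neuron, samples 4 to 7 are Type-1 and the others are Unknown. Samples 1, 3, 5 and 8 were taken at P0 (postnatal day 0), sample 10 at P1, samples 2 and 9 at P2, and samples 4, 6 and 7 at P3. Every Unknown neuron is from a CD-1 mouse and every Dbx1-derived neuron has a type, so type and mouse line cannot be fully told apart. The labels assign the mouse lines as given here, while 2 figure legends of the study assign them otherwise, and the labels were followed. Since each library is 1 neuron and no label names the animal, no test between groups was made, and all values are given per neuron.

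Microglia are the resident macrophages of the brain parenchyma. They depend on the receptor Csf1r and the transcription factors Spi1 (PU.1) and Irf8, they survey the tissue with receptors such as P2ry12 and Cx3cr1, and they make the complement protein C1q, which tags synapses for removal during development. When stimulated they release chemokines and cytokines, and macrophages at the borders of the brain (meninges and perivascular spaces) differ from them by genes such as Mrc1 and Pf4. Neurons are not a known source of most of these transcripts, whereas the lysosomal protease Ctsd and the protease inhibitor Cst3 are also made by neurons and astrocytes.

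Fragments counted on genes ran from 21392146 to 36629393 per library, and a count of 0 allows up to 3 counts. The FPKM values are fragments scaled to gene length and to all fragments on genes in the library. The reads carry no molecular identifiers, so intervals and limits cover counting error only. The library of sample 4, labelled as a Type-1 neuron, went against its label in its markers. Of 8 neuron genes fixed as markers, 6 were at 1 FPKM or more in it, but their summed level was 58.4 FPKM, against 761 FPKM in sample 1 and 1566 to 4669.6 FPKM in the other 8 libraries. The synaptic protein gene Snap25 was at 3.63 FPKM and the neuronal tubulin gene Tubb3 at 1.07 FPKM in sample 4, and the highest were Stmn2 (28.1 FPKM) and Uchl1 (18.6 FPKM). These genes and Elavl4 were lower there than in any other library. Nefl, Syt1 and Rbfox3 were not the lowest there: at 4.53, 2.38 and 0.0526 FPKM they exceeded 0.263 FPKM (sample 1), 0.655 FPKM (sample 2) and 0 FPKM (sample 10). Shares of counts averaged over neurons are therefore also given without sample 4.

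Sample 4 carried by far the most fragments of the microglia and macrophage genes. The 33 genes took 7.17% of its counts (exact Clopper-Pearson 95% interval 7.156 to 7.174), which is 7.17 times the share in the next library, sample 2, at 0.999% (0.996 to 1.002). Samples 3 and 8 followed with 0.574% and 0.326%, and samples 10 and 9 with 0.176% and 0.144%. The lowest shares were those of sample 1 at 0.105%, sample 6 at 0.0636%, sample 7 at 0.0631% and sample 5 at 0.0627%, and the 95% intervals of samples 5, 6 and 7 overlapped (0.0619 to 0.06353, 0.06272 to 0.06449 and 0.06212 to 0.06407). Cst3 alone made up between 28% (sample 4) and 78.4% (sample 7) of these fragments. Without Ctsd and Cst3 the shares were 5.05% in sample 4, 0.599% in sample 2, 0.145% in sample 3, 0.136% in sample 8, 0.0836% in sample 10 and 0.0513% in sample 9, and then 0.0368%, 0.0187%, 0.0169% and 0.00878% in samples 5, 6, 1 and 7.

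**Figure D1:**
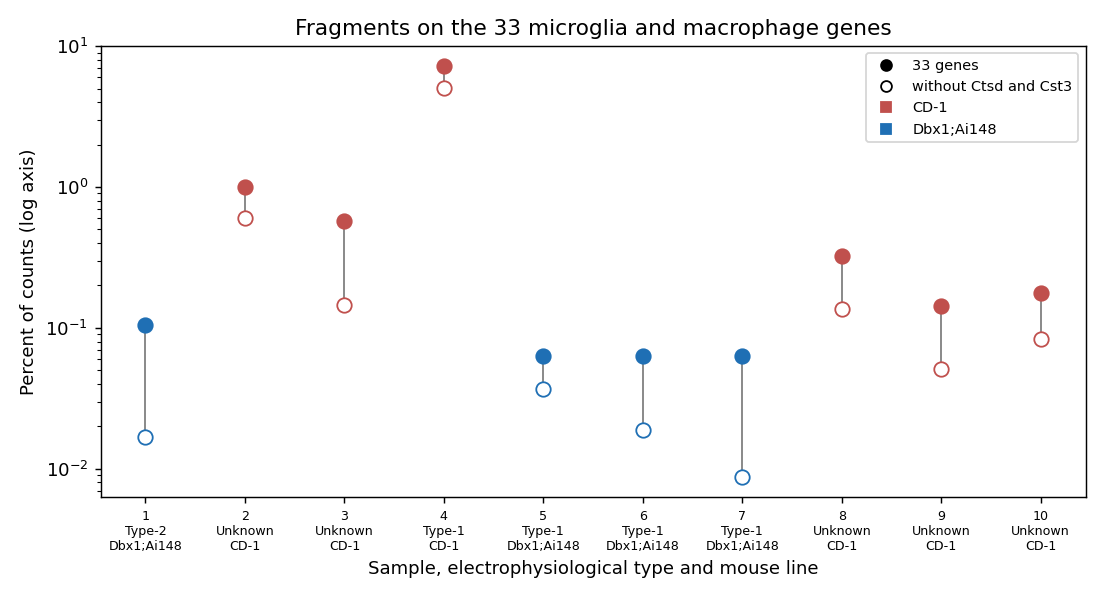
Percent of all counted fragments that fell on the 33 genes (filled) and on 31 of them without Ctsd and Cst3 (open), per neuron, on a log axis, with mouse line in colour. Sample 4 lies at 7.17% and the 4 Dbx1;Ai148 neurons lie between 0.0627% and 0.105%, below the 6 CD-1 neurons.

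By mouse line, the 6 CD-1 neurons lay between 0.144% and 7.17% (median 0.45%) and the 4 Dbx1;Ai148 neurons between 0.0627% and 0.105% (median 0.0633%). Without sample 4 the other 5 CD-1 neurons, which are the Unknown neurons, had a median of 0.326%. The groups did not overlap, with the lowest CD-1 neuron 1.36 times the highest Dbx1;Ai148 neuron, and they did not overlap without Ctsd and Cst3 either. Taken singly, 3 of the 33 genes (Siglech, Cst3 and Ccl3) were higher in every CD-1 neuron than in every Dbx1;Ai148 neuron. Of the 21231 genes with a fragment in any library, 133 (0.626%) showed this order. By type, the mean share was 1.84 ± 3.55% in Type-1 neurons (SD, n = 4) and 0.444 ± 0.354% in Unknown neurons (SD, n = 5), and it was 0.0631% in Type-1 neurons without sample 4. The 3 neurons of P3 lay far apart, with 7.17% in sample 4 and 0.0636% and 0.0631% in samples 6 and 7.

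The number of listed genes present also differed widely. At 1 FPKM or more there were 5, 23, 16, 32, 19, 11, 3, 23, 8 and 21 of the 33 in samples 1 to 10. Over the 21231 genes with a fragment in any library, the share at this level was 23.9%, 26.5%, 23.8%, 32%, 43.4%, 41.5%, 41.1%, 43.8%, 31.2% and 43.4% in the same order. It thus lay between 23.8% and 32% in samples 1 to 4, which had the least concentrated cDNA, and between 31.2% and 43.8% in samples 5 to 10, and the part of this in the levels below was not tested. In sample 4 the 1 gene below the limit was Pf4. In sample 7 only Ctsd, Lgmn and Cst3 reached it, and in sample 1 only C1qa, Aif1, Ctsd, Cst3 and Ccl4. Across neurons, Ctsd and Cst3 were at 1 FPKM or more in all 10, Ccl4 in 9, and Aif1, Lgmn and Ccl3 in 8, whereas Selplg, Ptprc and Mrc1 reached that level in sample 4 alone. Of the 33 genes 28 had their highest level in sample 4, against 13.3% of the 21231 genes. The exceptions were Gpr34 and Irf8 (highest in sample 2), Olfml3 (sample 3), Spp1 (sample 8) and Pf4, which had no fragment.

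**Figure D2:**
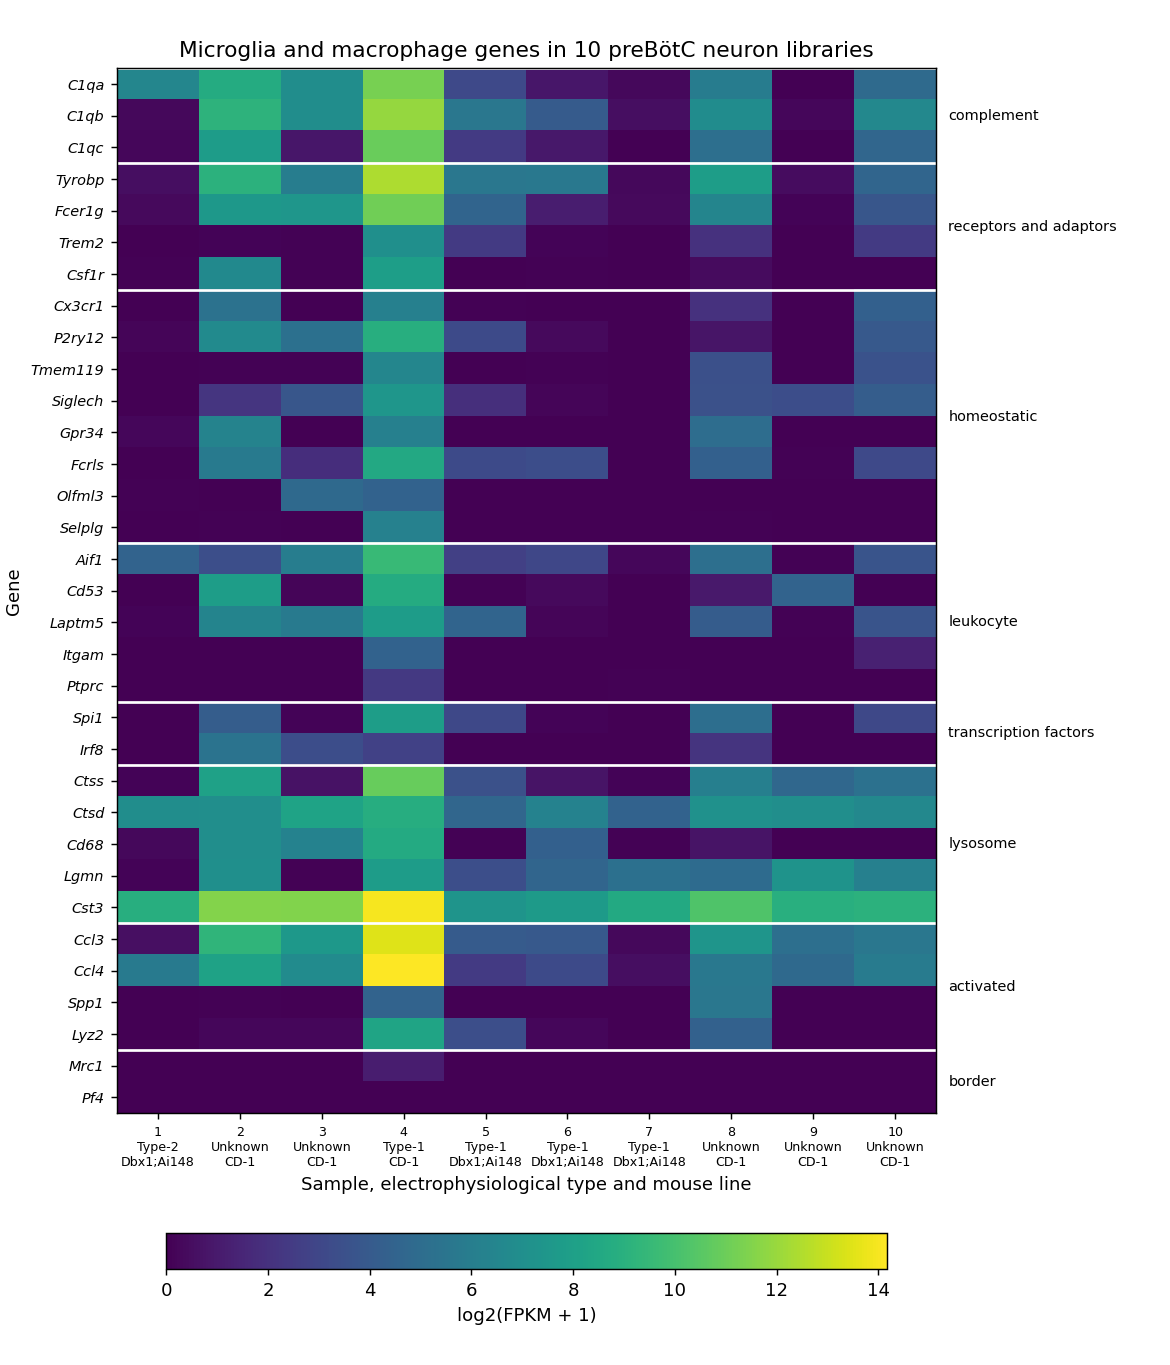
Level of each of the 33 genes (rows, by role) in each of the 10 libraries (columns) as log2(FPKM + 1). Sample 4 is above 0 in every row but Pf4, though low for Mrc1 (1.17 FPKM) and Ptprc (4.16 FPKM). Samples 2, 8 and 10 show broad but incomplete sets, and samples 1, 7 and 9 are dark outside a few rows.

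The complement genes C1qa, C1qb and C1qc encode the 3 chains of C1q and lie side by side on chromosome 4 (C1qb at chr4:136880129-136886187, C1qc at chr4:136889804-136893065 and C1qa at chr4:136895917-136898803 in GRCm38). C1qa was at 90.3, 419, 121, 2460.3, 7.72, 0.824, 0.225, 60.1, 0 and 28.4 FPKM in samples 1 to 10. C1qb was at 0.258, 578, 122, 3885, 48.2, 15.8, 0.429, 119, 0.167 and 95.5 FPKM, and C1qc at 0.169, 229, 0.781, 1958, 4.23, 0.855, 0, 34.8, 0.0235 and 24.8 FPKM. All 3 chains were present together in samples 2, 4, 5, 8 and 10. The other libraries held them singly or in part: sample 1 held C1qa from 2008 fragments with 6 of C1qb and 7 of C1qc, sample 3 held C1qa and C1qb from 3920 and 4144 fragments with 47 of C1qc, and sample 6 held C1qb from 540 fragments with 27 of C1qa. Accordingly the ratio of C1qb to C1qa FPKM ran from 0.00286 in sample 1 over 1.58 in sample 4 to 19.1 in sample 6.

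Among receptors and adaptors, the signalling adaptor Tyrobp (chr7:30413760-30417585) was at 0.421, 549.8, 62.7, 5567, 47.5, 50.4, 0.234, 239.6, 0.408 and 24 FPKM in samples 1 to 10. Fcer1g, the common chain of Fc receptors, was at 0.267, 187, 176, 2209.6, 23.1, 1.16, 0.267, 87.4, 0.104 and 13.1 FPKM. Samples 1, 7 and 9 stayed below 1 FPKM for both adaptors and the other 7 libraries held both. Trem2, a lipid-sensing receptor that signals through Tyrobp, reached 132 FPKM in sample 4 and 4.35, 4.28 and 3.05 FPKM in samples 10, 5 and 8, while the other 6 neurons had at most 0.0892 FPKM. The growth factor receptor Csf1r reached 245 and 106 FPKM in samples 4 and 2 and at most 0.326 FPKM in the remaining 8 neurons, so that samples 5, 8 and 10 carried Trem2 without Csf1r at that level and sample 2 carried Csf1r without Trem2. The exons of Csf1r overlap those of the antisense gene Hmgxb3, and the library kit does not mark strand.

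Of the 8 homeostatic genes, which mark unstimulated microglia, 8 were at 1 FPKM or more in sample 4, 5 in each of samples 2, 8 and 10, 4 in sample 3, 3 in sample 5, 1 in each of samples 6 and 9, and 0 in samples 1 and 7. The ADP receptor P2ry12 was at 0.129, 109, 36.3, 477, 8.11, 0.299, 0.0306, 0.769, 0.0178 and 14.7 FPKM in samples 1 to 10. Its exons overlap those of the antisense gene Med12l. The chemokine receptor Cx3cr1 reached 72.3, 39.5, 19.1 and 3.06 FPKM in samples 4, 2, 10 and 8 and at most 0.0545 FPKM elsewhere. Its exons overlap the antisense gene Gm33858. Tmem119, a membrane protein used as a microglial marker, reached 90.3, 10.7 and 9.79 FPKM in samples 4, 10 and 8, but in sample 2 its level was 0.0715 FPKM, from 6 fragments. The samples with the broadest sets thus differed in which homeostatic genes they held.

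The lectin Siglech reached 176, 17.1, 13.1, 10.3, 9.25, 3.62 and 2.74 FPKM in samples 4, 10, 3, 8, 9, 2 and 5 and at most 0.122 FPKM in samples 1, 6 and 7. Fcrls, an Fc receptor-like gene, reached 375, 54.3 and 19.1 FPKM in samples 4, 2 and 8. In samples 3, 5, 6 and 10 it ranged from 2.65 to 9.17 FPKM, and samples 1, 7 and 9 had at most 0.0776 FPKM. Gpr34, a lysophospholipid receptor, was slightly higher in sample 2 (79.6 FPKM) than in sample 4 (71.8 FPKM). It reached 32.9 FPKM in sample 8, and the other 7 neurons had at most 0.201 FPKM. Olfml3, a secreted protein, reached 27.6 and 20.8 FPKM in samples 3 and 4, and at most 0.0531 FPKM in the remaining 8 neurons. Selplg, the ligand of P-selectin, reached 72.9 FPKM in sample 4 and at most 0.0452 FPKM in any other library. In samples 1 and 7 no homeostatic gene passed 0.201 FPKM.

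Among genes shared by leukocytes, Aif1 (IBA1, an actin-binding protein) was at 22, 9.74, 62.8, 734, 5.45, 7.21, 0.178, 34.7, 0.0591 and 12 FPKM in samples 1 to 10. Laptm5, a lysosomal membrane protein, reached 226, 83.8 and 53.3 FPKM in samples 4, 2 and 3. It ranged from 11.9 to 22.4 FPKM in samples 5, 8 and 10, and samples 1, 6, 7 and 9 had at most 0.134 FPKM. The tetraspanin Cd53 reached 425, 237 and 22.2 FPKM in samples 4, 2 and 9, and at most 0.972 FPKM in the others. Itgam (CD11b) reached 20.8 and 1.51 FPKM in samples 4 and 10 and was below 1 FPKM in all others. It overlaps the same-strand gene Gm49368, and how fragments in the overlap were counted is not given. Ptprc (CD45) reached 4.16 FPKM, in sample 4 alone. Of the transcription factors, Spi1 reached 233, 33.1, 17.4, 7.54 and 7.32 FPKM in samples 4, 8, 2, 5 and 10, and at most 0.0953 FPKM in the remaining 5. Irf8 was highest in sample 2 at 41.6 FPKM, followed by samples 3, 4 and 8 (9.04, 5.79 and 3.34 FPKM). Samples 5 and 10 therefore held Spi1 with Irf8 at 0.00387 and 0 FPKM, and sample 3 held Irf8 with Spi1 at 0.0953 FPKM.

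Since Spi1 binds a purine-rich core, the promoters of the listed genes were searched for its letters GAGGAA on either strand. RefSeq promoter sequences of GRCm38.p6, from 250 bases before to 50 after the gene start, were matched by symbol for 25 of the 33 genes, with 29 windows. The letters were found in 17 of the 29 windows (58.6%), against 28.3% of all 32851 windows of the same length. The longer Ets-IRF composite element, where Spi1 and an interferon regulatory factor can sit side by side, was in 1 window of the 29 (3.45%) and in 2.72% of all. A match is a description of letters and not of binding. The 3 promoters shown are among those with the most matches over the whole window, with 3 in Itgam, 3 in Mrc1 and 2 in Ctss. Matches in the 50 bases after the start are not shown. These 3 promoters belong to genes of different roles, with matches in capitals on either strand. They are the 250 bases before the start, all on the plus strand: Itgam at chr7:128062390-128062639, with matches beginning 84 and 15 bases before the start, Mrc1 at chr2:14229164-14229413, with matches at 180, 167 and 35 bases, and Ctss at chr3:95526536-95526785, with a match at 164 bases.
Itgam: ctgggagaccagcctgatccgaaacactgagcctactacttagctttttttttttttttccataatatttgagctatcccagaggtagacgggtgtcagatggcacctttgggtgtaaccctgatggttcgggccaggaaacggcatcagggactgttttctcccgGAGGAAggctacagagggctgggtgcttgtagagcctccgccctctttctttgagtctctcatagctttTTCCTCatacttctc
Mrc1: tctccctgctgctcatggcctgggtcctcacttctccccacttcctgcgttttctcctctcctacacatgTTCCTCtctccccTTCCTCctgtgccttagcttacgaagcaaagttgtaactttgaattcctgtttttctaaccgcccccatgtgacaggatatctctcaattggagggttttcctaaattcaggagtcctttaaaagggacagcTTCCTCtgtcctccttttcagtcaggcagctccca
Ctss: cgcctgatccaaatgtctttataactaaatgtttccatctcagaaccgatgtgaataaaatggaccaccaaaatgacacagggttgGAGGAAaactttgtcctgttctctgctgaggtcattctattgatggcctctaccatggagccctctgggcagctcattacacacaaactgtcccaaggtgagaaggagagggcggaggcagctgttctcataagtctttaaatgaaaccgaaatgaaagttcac
These 3 genes stood far apart in level. In sample 4 Ctss was at 1876 FPKM, Itgam at 20.8 FPKM and Mrc1 at 1.17 FPKM.

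The lysosomal genes were the most widely present. The cysteine protease Ctss (cathepsin S) was at 0.103, 272, 0.638, 1876, 10.6, 0.702, 0.115, 68.7, 25.9 and 38.7 FPKM in samples 1 to 10. Cd68, a lysosomal membrane glycoprotein of macrophages, was at 402, 128, 77.9 and 19.3 FPKM in samples 4, 2, 3 and 6, with at most 0.659 FPKM in the remaining 6. Samples 5, 8, 9 and 10 thus held Ctss without Cd68 at 1 FPKM, and samples 3 and 6 held Cd68 without Ctss. The aspartic protease Ctsd (cathepsin D) was at 122, 125, 291, 461, 24.8, 76.2, 20.6, 142, 126 and 97.1 FPKM, and sample 4 exceeded the next library by 1.58 times only. The asparaginyl protease Lgmn (legumain) was at 0.121, 133, 0.0691, 228, 9.48, 23.3, 36.1, 29.7, 156 and 69.95 FPKM, so it was high in sample 9, where 25 of the 33 genes were below 1 FPKM. Cst3 (cystatin C) was at 471, 2925, 2849, 15869.9, 159, 213, 391, 1242, 496 and 548 FPKM, the highest of the 33 genes in every library but sample 4, where Ccl4 was higher. Ctsd overlaps the same-strand gene Gm49369, and how fragments in the overlap were counted is not given.

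The chemokine genes Ccl3 and Ccl4 lie near each other on chromosome 11 (chr11:83647844-83649355 and chr11:83662584-83664683 in GRCm38). Ccl3 was at 0.488, 614, 189, 11305, 15.8, 14.5, 0.254, 164, 34.8 and 47.4 FPKM in samples 1 to 10. Ccl4 was at 56, 288, 112, 18372, 4.34, 8.08, 0.413, 49.1, 28 and 58.7 FPKM. Together they took 29% of the fragments of the 33 genes in sample 4, and 6.61% or less in each other library. The ratio of Ccl3 to Ccl4 was 0.615 and 0.808 in samples 4 and 10. It ranged from 1.24 to 3.64 in samples 2, 3, 5, 6, 8 and 9 and fell to 0.00873 in sample 1, where Ccl4 had 790 fragments and Ccl3 had 8. In sample 7 neither chemokine reached 1 FPKM.

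Lyz2 (lysozyme) reached 312, 20.2 and 9.38 FPKM in samples 4, 8 and 5, and at most 0.21 FPKM in the remaining 7. Spp1 (osteopontin), a secreted protein of stimulated macrophages, was highest in sample 8 at 48.1 FPKM, from 2107 fragments. It reached 21.6 FPKM in sample 4 and at most 0.0669 FPKM elsewhere. Sample 8 was, with sample 4, the library that held all 4 genes of the activated group. Spp1 shares exon positions with the same-strand gene Gm42793, and how fragments in the overlap were counted is not given.

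The border macrophage genes were nearly absent. Mrc1 (the mannose receptor CD206) was at 1.17 FPKM in sample 4, from 220 fragments, with at most 0.022 FPKM in the remaining 9. Pf4 (a platelet and macrophage chemokine) had 0 fragments in all 10 libraries, which allows up to 0.114 to 0.195 FPKM, depending on the library. Of 8 further border macrophage genes, Stab1, a scavenger receptor, was at 16.6 FPKM in sample 4 and F13a1, a clotting factor chain, at 1.34 FPKM in sample 7. The other 6 were below 1 FPKM in all libraries, among them Cd163, Lyve1 and Ms4a7.

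Set against each other, the homeostatic and activated groups summed to 1355 and 30009.9 FPKM in sample 4, and the homeostatic genes were 4.32% of the FPKM of the homeostatic, activated and border groups together. They were 39.6%, 39%, 29.9%, 24.1%, 21.3%, 21% and 13% of that sum in samples 10, 5, 6, 2, 8, 3 and 9, and 0.769% in sample 1, where the sum of 56.9 FPKM was nearly all Ccl4. In sample 7 the sum was 0.832 FPKM and the share was left out. The activated FPKM sum was above the homeostatic FPKM sum in all 10 libraries, by 1.53 times in sample 10, 22.1 times in sample 4 and 129 times in sample 1. Ccl3 and Ccl4, at 766 and 660 bases, are shorter than every homeostatic gene, and FPKM is scaled to length. By share of counts the homeostatic group was above the activated group in samples 2, 3, 5, 6 and 10. Its shares there were 0.076%, 0.0313%, 0.00487%, 0.00231% and 0.0225%, against 0.066%, 0.0218%, 0.00273%, 0.00167% and 0.00751%. It was below in samples 1, 4, 8 and 9 and equal in sample 7. The highest gene of the groups by FPKM was Ccl3 or Ccl4 in each library. Without it the homeostatic share of FPKM rose above 50% in samples 5, 6 and 10 (57.9%, 54% and 59.4%) and reached 10.4% in sample 4.

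**Figure D3:**
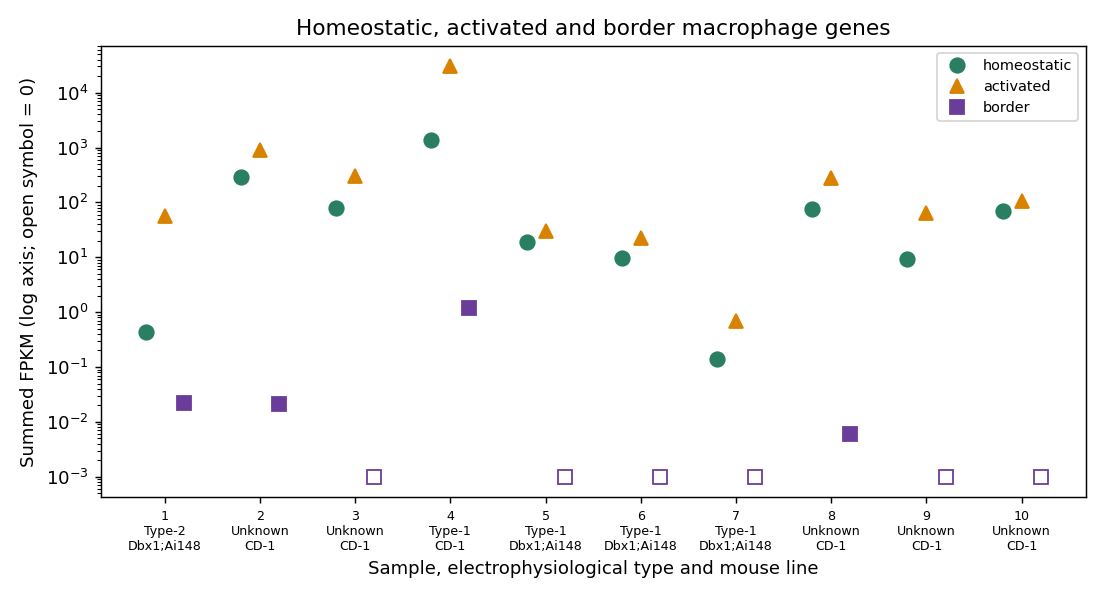
Summed FPKM of the 8 homeostatic, 4 activated and 2 border macrophage genes in each library on a log axis, with open symbols for 0. The activated sum lies above the homeostatic sum in every library, and the border sum passes 1 FPKM in sample 4 alone, at 1.17.

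By summed level, further genes of both programs were also highest in sample 4. The further activated genes summed to 2197 FPKM there and 69.97 FPKM in sample 8, though sample 8 held more of them at 1 FPKM. Of 10 additional homeostatic genes, 9 were at 1 FPKM or more in sample 4. Among them were the crystallin gene Crybb1 at 517 FPKM and the transcription factor Sall1 at 6.25 FPKM. Samples 2 and 8 held 5 of them, sample 3 held 4, sample 9 held 3, samples 5, 7 and 10 held 2, sample 6 held 1 and sample 1 held 0. Crybb1 was higher in sample 2 (738 FPKM) than in sample 4. Of 12 additional genes of activated microglia, 6 were at 1 FPKM or more in sample 4, and the highest were the cytokines and chemokines Ccl2 (867 FPKM), Il1a (747 FPKM), Tnf (486 FPKM) and Il1b (84.1 FPKM). Itgax, Clec7a, Gpnmb and Lgals3, genes of phagocytic or disease-associated microglia, had no fragment in any library, and Igf1 and Cst7 had none in sample 4. Sample 8 held 7 of the 12, with Il1b at 14.4 FPKM, Tnf at 15 FPKM, Axl at 13.2 FPKM and Cst7 at 5.65 FPKM, a gene without a fragment in the other 9.

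The sets of the other libraries followed the levels in sample 4 in part. When the 32 genes at 1 FPKM or more in sample 4 were divided at the middle by their level there, the 16 higher genes ran from 312 to 18372 FPKM and the 16 lower from 1.17 to 245 FPKM. Sample 2 held 15 of the higher and 8 of the lower genes, sample 5 held 14 and 5, sample 10 held 13 and 8, sample 8 held 13 and 10, sample 3 held 12 and 4, sample 6 held 10 and 1, sample 9 held 6 and 2, sample 1 held 5 and 0, and sample 7 held 2 and 1. The higher genes, which include Ctsd and Cst3, were more often present in each of these 9 libraries. Across the 33 genes, which are not independent replicates, the Spearman correlation of FPKM with sample 4 ran from 0.619 in sample 7 to 0.886 in sample 2, as a description of these libraries. Neither the division nor the correlation was made over genes outside the list. Whether this order is particular to the listed genes was thus not tested.

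Fragments of the listed genes below 1 FPKM differed between libraries in their count relative to sample 4. For comparison, 183 genes outside every list were taken that had at least 1000 counts in sample 4 and at most 2% of that in each other library, so they are low elsewhere by choice. With the 10% of them highest in a library left out, their summed count was 0.0954% of that in sample 4 in sample 8, 0.0775% in sample 2, 0.0379% in sample 6 and 0.0268% in sample 3, and 0% in samples 1, 5, 7, 9 and 10. The listed genes with at least 1000 counts in sample 4 that were below 1 FPKM stood at 0.141% of their sample 4 count in sample 8 (8 genes), 0.0898% in sample 2 (8 genes), 0.0482% in sample 6 (20 genes) and 0.0399% in sample 3 (15 genes). In sample 2 these were 51 fragments, where the ratio of the 183 genes gives 44, and in sample 3 they were 140 where it gives 93.8. In samples 1, 5, 7, 9 and 10 the listed genes below 1 FPKM held 94, 26, 104, 28 and 3 fragments in all. The 183 genes were trimmed and the listed genes were not, and the sets were chosen by unlike rules, so the ratios are given side by side as a description. The part of RNA or reads from sample 4 in these values was not tested.

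**Figure D4:**
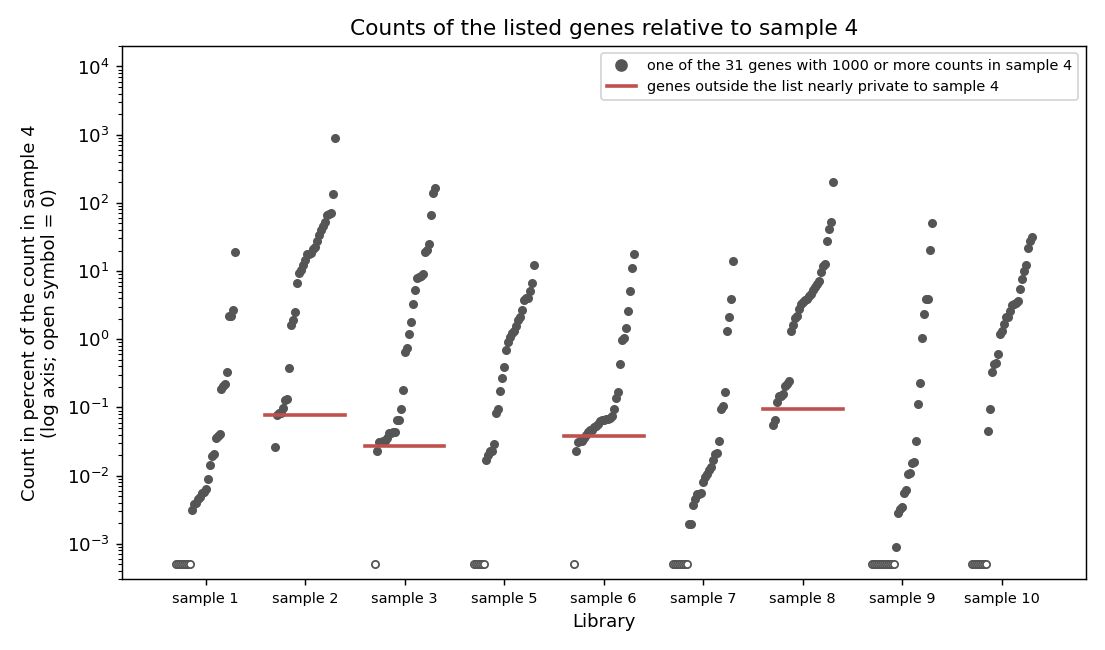
Count of each of the 31 genes with at least 1000 counts in sample 4, as a percent of its sample 4 count (log axis, open symbols for 0), in the other 9 libraries; the red line is the same ratio for 183 genes nearly private to sample 4, drawn where it is above 0. In samples 2, 3, 6 and 8 the lowest genes lie around the line, and in sample 2 the genes run from 0.0265% to 886%.

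The genes at 1 FPKM or more did not stand in a single ratio to sample 4. Their median was 21% of the sample 4 count in sample 2, 8.24% in sample 3, 4.6% in sample 8, 3.89% in sample 7, 3.21% in sample 10, 3.13% in sample 9, 2.18% in sample 1, 1.54% in sample 5 and 1.05% in sample 6. These medians cover unlike gene sets, from 3 genes in sample 7 (Ctsd, Lgmn and Cst3) to 23 genes in samples 2 and 8. Over all 31 genes with at least 1000 counts in sample 4, the medians were 14.4%, 3.57% and 1.31% in samples 2, 8 and 10. They were 0.643%, 0.39% and 0.0663% in samples 3, 5 and 6, and 0.00797%, 0.00629% and 0.00352% in samples 7, 1 and 9. The genes at 1 FPKM or more ran from 1.64% to 886% in sample 2 and from 0.241% to 201% in sample 8. With genes below 1 FPKM included, the lowest ratios there were 0.0265% and 0.0545%. Among genes at 1 FPKM or more in sample 6 the lowest ratio was that of Ccl4, whose 168 fragments were 0.0471% of the 356928 in sample 4, against 0.0379% for the 183 genes. Among such genes in sample 5 Ccl4 was again the lowest, with 105 fragments or 0.0294%, where the 183 genes stood at 0%.

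Markers of other cell types moved with the listed genes in some libraries. Of 10 astrocyte genes, 10, 9 and 8 were at 1 FPKM or more in samples 8, 3 and 2, against 2 to 5 in the other 7, and the summed level in those 3 was 2302, 6714 and 3598 FPKM. The sum was 5125 FPKM in sample 4, of which the apolipoprotein gene Apoe, which microglia also express, was 4991 FPKM. Aqp4, Slc1a2, Aldoc and S100b were also at 1 FPKM or more in sample 4, while Gfap was at 0.0161 FPKM and Gja1 at 0.0298 FPKM. Of 7 genes of the oligodendrocyte lineage, 4 were at that level in each of samples 2, 3 and 8 and 2 or fewer in the others. The part of these cells in the levels of Cst3 and Ctsd was not tested. The 5 monocyte and neutrophil genes were below 1 FPKM in all libraries, and of the 5 lymphocyte genes Cd79a alone passed it, at 49.7 FPKM in sample 9 and 3.79 FPKM in sample 7. Of 6 endothelial and 4 mural genes, 1 (Tek, at 6.82 FPKM in sample 1) was at 1 FPKM or more in any library. Of the genes that present antigen on MHC class II, Cd74 was at 62.2 FPKM in sample 4 and 56.7 FPKM in sample 3. It was at 5.9 FPKM in sample 8. In sample 10 Cd74 was at 8.98 FPKM and H2-Aa at 3.67 FPKM, from 425 fragments, while H2-Ab1 and H2-Eb1 had no fragment in any library. The cell cycle gene Cdk1 was at 37 FPKM in sample 4, with Mki67 at 0.00338 FPKM there. Other libraries held cell cycle genes too: Cdk1 at 6.62 and 2.93 FPKM in samples 8 and 5, Top2a at 8.02 and 5.56 FPKM in samples 5 and 10, and Birc5 at 31.4 FPKM in sample 3.

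**Figure D5:**
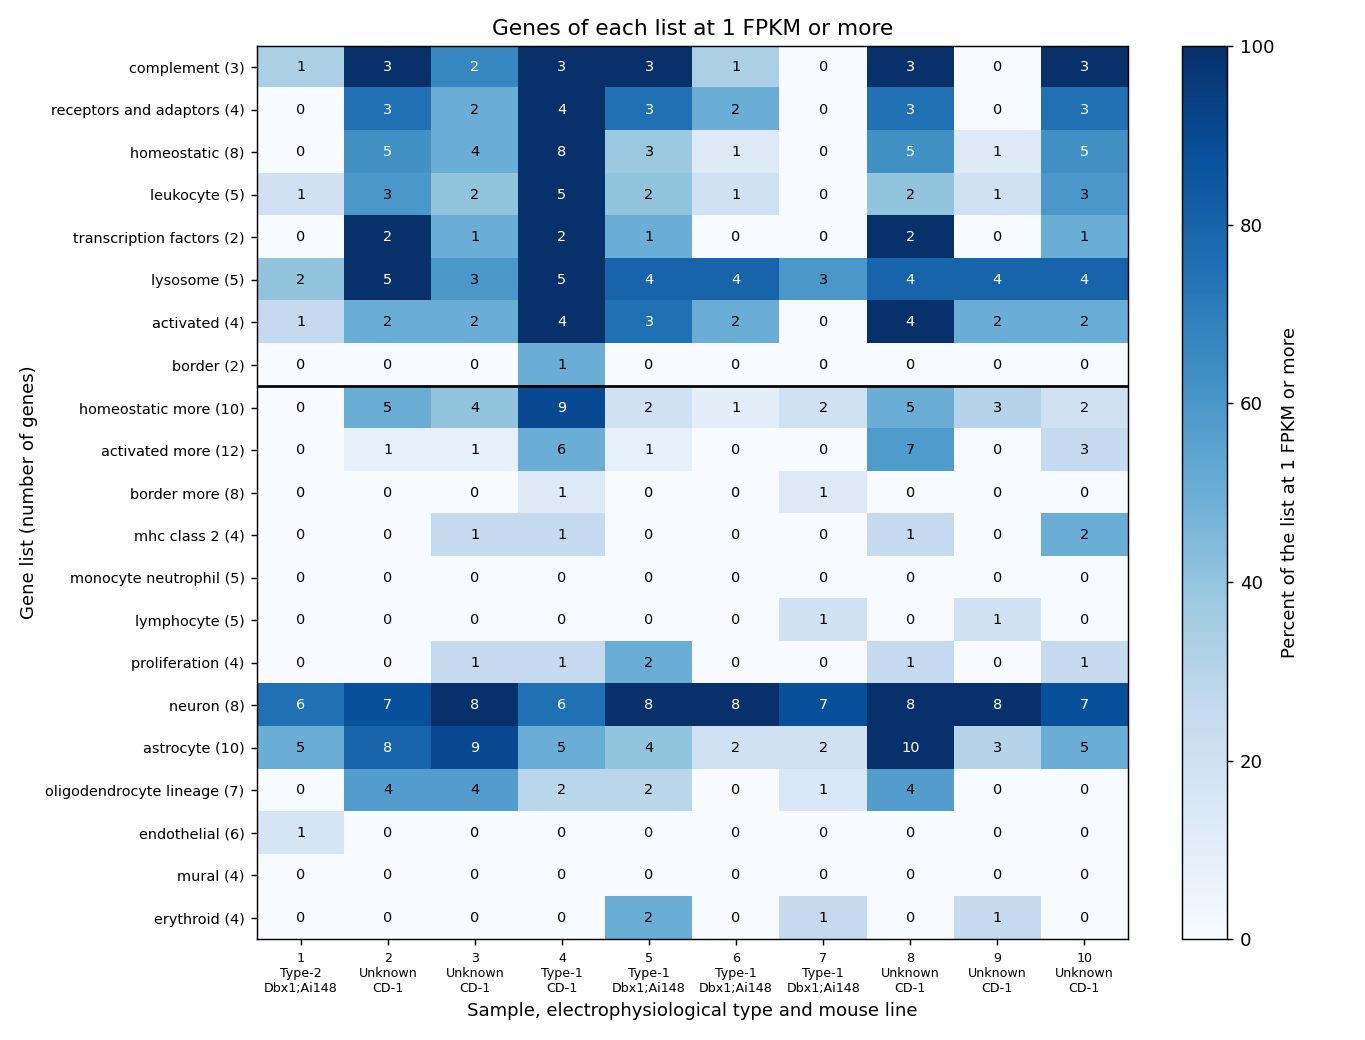
Number of genes at 1 FPKM or more (figures in the cells; shade, percent of the list) for the 8 role groups of the 33 genes, above the line, and for the further lists, below it, in each library. Sample 4 fills the microglia groups but the border group (1 of 2), all libraries fill most of the neuron list, and the astrocyte list is fullest in samples 2, 3 and 8.

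Outside all lists, 987 of the 21231 genes with a fragment in any library had at least 95% of their summed FPKM in sample 4. The 10 highest of them there were Gadd45b (707 FPKM), Mir142hg (436 FPKM), Srgn (431 FPKM), Slfn2 (359.6 FPKM), Gm22933 (288 FPKM), Cd300c2 (288 FPKM), Emp3 (262 FPKM), Rnu6 (254 FPKM), Gm26532 (252 FPKM) and Gm23849 (235 FPKM). Mir142hg hosts a microRNA of blood cells, Srgn encodes the granule proteoglycan serglycin, and Cd300c2 encodes a receptor of myeloid cells. Outside sample 4 the highest level of Mir142hg, Srgn and Cd300c2 was 0.634 FPKM, low through the way these genes were chosen. The count of genes at the 95% limit was not made for the other libraries. Gm22933, Rnu6 and Gm23849 are 191 bases or shorter in the length table, so their FPKM rests on 628 to 1323 fragments.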

How the data were processed

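RNA of 10 single inspiratory neurons was analysed, 1 library per neuron. Per the methods of the study, the authors trimmed the reads with bbduk, aligned them with STAR 2.7.7a to GRCm38 and deposited raw fragment counts per gene from featureCounts. The deposited FPKM values are those counts divided by gene length and by the total of fragments on genes, and the authors also deposited the gene lengths. Counting options for strand and for fragments with several matches are not given in the sources used here. The 33 genes, their role groups and the other lists were chosen with earlier results of these data known, and all 33 are named. A gene was called present at 1 FPKM. Of the further homeostatic genes, 1 is counted in its list and its values are not reported here. Outside the lists, the 10 highest genes with at least 95% of their FPKM in the library richest in the 33 genes were named. The trim of 10% in the ratio of nearly private genes was set after the values were seen, and in simulated data the ratio mostly came out below the one put in. Gene positions are from GENCODE M21, promoters from RefSeq, both on GRCm38. Alternatives were other FPKM limits, TPM, counts below 10 set to 0, thinning to the smallest total, other totals or gene subsets, and leaving out neurons. Tables were handled with pandas 2.3.3 and NumPy 2.4.6 under Python 3.11.15, intervals came from SciPy 1.17.1, and plots from Matplotlib 3.10.9.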

Additional observations from a re-analysis of the deposited data

Results flagged for a closer look

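In 68 sets of values (the 32 genes with a fragment, the share of counts and the number of genes present, each in the Type-1 and in the Unknown neurons), 47 held a neuron whose distance to its nearest neighbour was large against the range of its group by Dixon's criterion. The rate of about 1 in 20 by chance holds for normally distributed values. The FPKM values are skewed and hold zeros, as for Mrc1 in the Type-1 neurons (1.17 FPKM against 0). The genes also come from the same libraries, so the sets are not independent, and they were chosen with earlier results known. The number of sets is therefore a description and is not compared with that rate.

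Among the 4 Type-1 neurons, sample 4 stood apart in 33 sets, which were 32 genes and the share of counts (7.17% against 0.0636% or less). Its C1qa, C1qb and C1qc were at 2460.3, 3885 and 1958 FPKM against 48.2 FPKM or less in the other 3. Tyrobp, Fcer1g, Trem2 and Csf1r were at 5567, 2209.6, 132 and 245 FPKM against 50.4 FPKM or less. Of the homeostatic genes, Cx3cr1, P2ry12, Tmem119, Siglech, Gpr34, Fcrls, Olfml3 and Selplg were at 72.3, 477, 90.3, 176, 71.8, 375, 20.8 and 72.9 FPKM against 9.17 FPKM or less. Aif1, Cd53, Laptm5, Itgam and Ptprc were at 734, 425, 226, 20.8 and 4.16 FPKM, and Spi1 and Irf8 at 233 and 5.79 FPKM. Ctss, Ctsd, Cd68, Lgmn and Cst3 were at 1876, 461, 402, 228 and 15869.9 FPKM. Ccl3, Ccl4, Spp1, Lyz2 and Mrc1 were at 11305, 18372, 21.6, 312 and 1.17 FPKM.

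Among the 5 Unknown neurons, sample 2 stood above the others in C1qa (419 FPKM), C1qb (578 FPKM), C1qc (229 FPKM), Csf1r (106 FPKM), Cd53 (237 FPKM), Irf8 (41.6 FPKM), Ctss (272 FPKM), Ccl3 (614 FPKM) and Mrc1 (0.0216 FPKM, from 5 fragments). Sample 3 stood above them in Olfml3 (27.6 FPKM) and Ctsd (291 FPKM), sample 8 in Spp1 (48.1 FPKM) and Lyz2 (20.2 FPKM), and sample 10 in Itgam (1.51 FPKM).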

How the results depend on the processing

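The number of genes present moved by more than 1.5 times with a limit of 0.1 FPKM in samples 1, 6 and 7 (16, 19 and 11) and with TPM in sample 7 (5); it stayed within that range in all libraries at 5 FPKM, with counts below 10 set to 0 and after thinning to 21392146 fragments. With mitochondrial genes left out of the totals, the share of counts on the 33 genes moved outside its counting interval in samples 2, 3, 4, 8 and 9 (1.08%, 0.623%, 7.95%, 0.344% and 0.156%). Without Ctsd and Cst3 it was 0.0169%, 0.599%, 0.145%, 5.05%, 0.0368%, 0.0187%, 0.00878%, 0.136%, 0.0513% and 0.0836% in samples 1 to 10. The mean share ran from 0.0631% (without sample 4) to 2.43% in Type-1 neurons and from 0.305% (without sample 2) to 0.519% in Unknown neurons when 1 neuron was left out, so the Type-1 mean rests on sample 4. The homeostatic share of the homeostatic, activated and border FPKM moved without Lyz2 in samples 5 and 8 (48.4% and 22.5%). Without the highest gene it was 46.2%, 49.8%, 41.6%, 10.4%, 57.9%, 54%, 39.3%, 25% and 59.4% in samples 1, 2, 3, 4, 5, 6, 8, 9 and 10. With genes of at least 100 counts in sample 4, the median count relative to sample 4 moved in sample 3 (0.411%). No paired analysis was possible because no test was made and the neurons carry no shared number. Depth limits the genes below 1 FPKM, some of which rest on 1 to 3 fragments.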
